A study of Bos taurus with 28 samples.

Results

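Among heifer calves reared on a high plane of nutrition (HI), expression of the prolactin gene PRL in the anterior pituitary fell into 2 separate ranges, and the calves of those ranges are described here. The 13 HI calves, of 28 calves in the series, were grouped by their own PRL value in the deposited table, which gives 7 calves above and 6 calves below 150000 CPM. CPM gives reads per 1000000 reads of the library, after the authors' correction for library composition. No calf of the moderate plane of nutrition (MOD, 15 calves) was used. All 13 calves were Holstein-Friesian and Angus crossbred heifers under the same treatment. They were first offered 1.5 kg of milk replacer (10 litres) per day, reduced stepwise to none by the end of a calf phase of 8 weeks, with unrestricted concentrates, then unrestricted concentrates with hay for 11 weeks, and the gland was collected at 21 weeks of age. The labels give no allele, agent or batch that separates the ranges. The tissue is a whole anterior pituitary, in which fewer cells of a type and less RNA per cell cannot be told apart.

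The anterior pituitary holds several hormone producing cell types. Lactotrophs make prolactin, somatotrophs make growth hormone and gonadotrophs make the gonadotropins. Lactotrophs are unusual in that they release hormone unless they are held back, and the inhibitor is dopamine from the hypothalamus, which acts on the D2 receptor encoded by DRD2 to lower cAMP, calcium entry and PRL transcription. Releasing factors act in the opposite direction, in part through phospholipase C and intracellular calcium.

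PRL (ENSBTAG00000015274) set the ranges, so its values are a description. The 7 calves of the high range had between 191905 and 267896 CPM of PRL, with a median of 217978 CPM. The 6 calves of the low range had between 70067 and 118463 CPM, with a median of 94982 CPM. The calves nearest to the limit were calf 1360 with 118463 CPM just below it and calf 2570 with 191905 CPM just above it, and no calf lay between them. PRL took between 17.2% and 24.0% of the reads counted on genes in the high range and between 7.98% and 12.2% in the low range.

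The libraries of the ranges also differed in their overall measures. Between 13459062 and 16987918 reads were counted on genes in the high range and between 12928932 and 18217216 in the low range. The TMM factor corrects a library total for its composition, of which PRL is a large part, so it is not independent of the grouping. It was between 0.867 and 0.955 in the high range and between 1.03 and 1.14 in the low range. Between 17921 and 18224 genes had at least 1 read in the high range and between 18240 and 18705 in the low range. The TMM factors and the numbers of detected genes did not overlap between the ranges, and their part in the differences between other genes was not tested.

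The dopamine receptor gene DRD2 (ENSBTAG00000010860) had higher values in the high PRL range, apart from a calf of the low range. Values ran from 397 to 619 CPM with a median of 517 CPM in the high range, and from 199 to 435 CPM with a median of 297 CPM in the low range. Calf 2528, at 435 CPM, was the only calf of the low range that reached the values of the high range, and without it the ranges of DRD2 did not overlap. The ratio of the medians was 1.74, and the difference of median log2(CPM + 0.5) was 0.80. All differences between the ranges below are on that scale, high minus low, and carry no test because a measured value chose the calves.

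CSHL1 (ENSBTAG00000017220), a gene of the growth hormone family as the supplementary table names it, was also higher in the calves with much PRL. It ran from 67539 to 150873 CPM with a median of 87968 CPM in the high range, and from 60600 to 79069 CPM with a median of 63970 CPM in the low range. In the high range 6 of the 7 calves were above every calf of the low range, and calf 3620 was the exception. Calves 2570, 2535 and 1089 stood above the other calves, at 150873, 131040 and 118247 CPM. The median difference of CSHL1 was 0.46. It was 0.67 without calf 1388, 2120 or 3620 and 0.62 without calf 1707, past 1.5-fold, and without calf 3620 the CSHL1 values did not overlap. Together PRL and CSHL1 took between 27.8% and 32.7% of the reads in the high range and between 15.3% and 20.4% in the low range. Whether this identifier is the growth hormone gene itself was not settled here, so CSHL1 stands for the identifier wherever it is named, also as a somatotroph marker. Reads shared between members of this gene family were not measured.

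**Figure D1:**
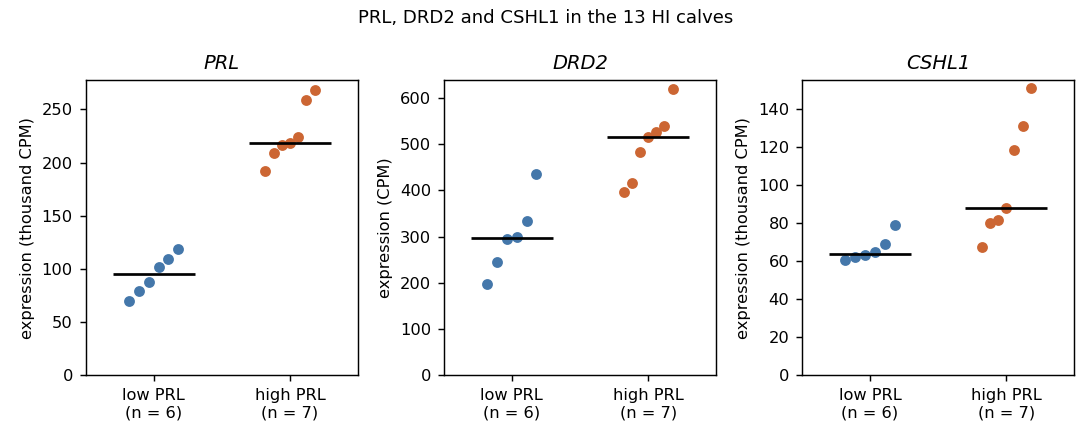
Expression in CPM (divided by 1000 for PRL and CSHL1) of 3 genes in the 13 HI calves, with a point for each calf, a line at the median and calves sorted by value within each PRL range. PRL defines the ranges and has no overlap, DRD2 overlaps through the low range calf at 435 CPM, and CSHL1 spreads from 67539 to 150873 CPM in the high range.

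The next question was how many other genes separated the same calves. Of the 14934 genes tested, PRL left out, 137 had values that did not overlap between the ranges (0.917%). Of these, 84 were higher in all calves of the high range (0.562%) and 53 were lower (0.355%). The separated genes mostly differed little, with a median difference of 0.33 among the higher and -0.38 among the lower genes, and 14 and 8 of them were past a fold change of 1.5. Across all genes tested, the difference of medians was past 1.5-fold for 183 genes on the higher side (1.23%) and 301 genes on the lower side (2.02%). When each library was scaled to its reads on genes other than PRL, the 84 and 53 genes became 38 and 119, and 75 of the 137 genes were still separated. With CSHL1 left out of the library totals as well they became 59 and 74. Leaving out any calf cannot lower these numbers, since fewer calves have to be separated. Without calf 1360, 2528 or 3620 the number of higher genes was 183, 142 and 222, and without any other calf it was between 91 and 125. Leaving out calf 553, 1360, 1388, 1531, 1707, 2528 or 3620 raised the lower genes to 86, 108, 81, 101, 94, 92 and 143.

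Genes could be named through the 159 symbols of the supplementary gene table, and the 158 of them other than PRL all passed the filter on low values. That table was chosen by the study on the HI against MOD difference in these same calves, so its genes are not an independent sample. In all, 3 of the 158 (1.90%) did not overlap between the PRL ranges, beside 0.917% of all genes, and all 3 were higher in the high range. PLCH2, which is 1 of the 3, passed the filter through the high range alone, so the share is only a description. CPZ, which encodes a carboxypeptidase of the matrix, overlapped by a narrow margin, with a lowest value of 8.56 CPM in the high range and a highest value of 8.57 CPM in the low range. CPZ did not overlap in any of the other scalings tried. A difference past 1.5-fold was found for 19 of the 158 on the higher side (beside 1.23% of all genes) and for 9 on the lower side (5.70%, beside 2.02%). The median of the differences was -0.01 for the 158 genes and -0.01 for all genes tested.

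PLCH2 (ENSBTAG00000002464), which encodes a phospholipase C that responds to calcium and makes inositol trisphosphate, had the largest difference of the 158 genes at the pseudocount of 0.5 CPM used here. It ran from 1.87 to 8.41 CPM with a median of 4.28 CPM in the high range, and from 0.387 to 1.34 CPM with a median of 0.476 CPM in the low range. The ratio of the medians was 8.99 and the difference 2.29. The lowest calf had 6 reads and the highest 128, so the low values rest on few reads. PLCH2 passed the filter on low values through the high range, with 7 calves of that range and 2 of the low range at the filter's 0.669 CPM. Its entry rested on the range where it was higher, so its separation and the size are only a description. The size of the difference depended on the pseudocount, with 2.93 at 0.1 CPM and 1.34 at 2 CPM, where the median difference of CASR was larger at 1.50.

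CAMK1D (ENSBTAG00000008650) encodes a protein kinase that is switched on by calcium and calmodulin. It ran from 10.6 to 20.8 CPM with a median of 14.0 CPM in the high range, and from 6.83 to 10.2 CPM with a median of 7.89 CPM in the low range, a difference of 0.79. Calf 2570 of the high range and calf 553 of the low range were nearly equal, at 10.6 and 10.2 CPM. With libraries scaled to reads on genes other than PRL the CAMK1D values overlapped, and the difference was 0.68.

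GPX3 (ENSBTAG00000043553) encodes a secreted glutathione peroxidase that removes peroxides. It ran from 2309 to 4803 CPM with a median of 2790 CPM in the high range, and from 1353 to 1979 CPM with a median of 1620 CPM in the low range, a difference of 0.78. GPX3 had separate values in each of the scalings tried. So did PLCH2, but that gene passed the filter through the high range alone, so this adds no support for it.

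**Figure D2:**
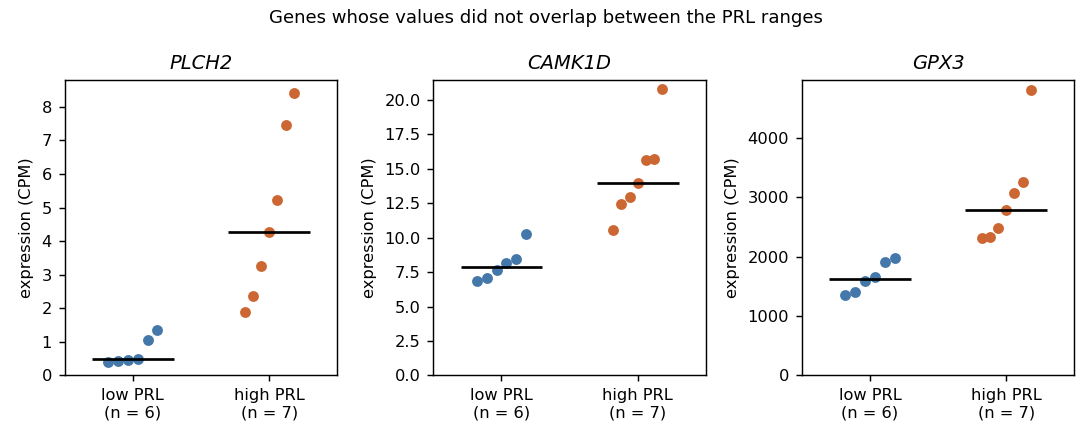
CPM of the 3 symbol genes whose values did not overlap between the PRL ranges, with a point for each of the 13 calves and a line at the median. The medians of PLCH2 are 4.28 and 0.476 CPM, those of CAMK1D 14.0 and 7.89 CPM, and those of GPX3 2790 and 1620 CPM, in the high and the low range.

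Among the 6 dopamine and hormone processing genes, the median difference was 0.56, and 3 were past 1.5-fold, all higher in the high range (beside 1.23% of all genes and 19 of the 158 symbol genes). These were DRD2, the ETS family transcription factor ETV1 and the calcium sensing receptor CASR. ETV1 (ENSBTAG00000015981) ran from 87.0 to 183 CPM with a median of 109 CPM in the high range, and from 55.6 to 104 CPM with a median of 69.5 CPM in the low range. The median difference of ETV1, 0.65, was 0.53 without calf 553, 986 or 1050 and 0.55 on libraries scaled to reads on genes other than PRL, both short of 1.5-fold. CASR (ENSBTAG00000003865) had medians of 42.1 and 13.6 CPM, but its high range was split. The median difference of CASR was 1.60, and 1.02 without calf 2120, 2570 or 3620. Calves 2570, 2535, 3620 and 2120 had between 42.1 and 86.4 CPM of CASR, and calves 1388, 1707 and 1089 had between 8.33 and 18.6 CPM, within the low range values of 6.21 to 23.1 CPM. DIO3, which inactivates thyroid hormone, had medians of 5.14 and 3.59 CPM. The median difference of DIO3, 0.48, was between 0.31 and 0.65 with 1 calf left out, past 1.5-fold at its highest. CACNA1E, a voltage gated calcium channel subunit, had medians of 1.47 and 2.06 CPM, and TRHDE, the enzyme that degrades thyrotropin releasing hormone, 5.75 and 6.02 CPM. Which median of TRHDE was higher depended on single calves, with differences between -0.12 and 0.18.

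Of the 11 calcium channel, pump and signalling genes, 7 had a higher and 4 a lower median in the high range. The list had 3 members past 1.5-fold on the higher side (beside 1.23% of all genes and 19 of the 158 symbol genes), and its median difference was 0.30. PLCH2 and CAMK1D, given above, are 2 of these 3 members. PLCH2 passed the filter on low values through the high range alone, so the count is only a description. PCP4, a small modulator of calmodulin, had medians of 14.9 and 10.3 CPM, and 5 of the 7 calves of the high range were above all calves of the low range. The protein kinase C gene PRKCB had medians of 19.8 and 16.7 CPM, and all its high range values lay within those of the low range. The G protein gene GNA15 had medians of 1.77 and 2.45 CPM, with overlap.

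The 4 growth hormone axis genes, CSHL1 included, had overlapping values and medians less than 1.5-fold apart with all calves, with a median difference of 0.15. GHRHR (ENSBTAG00000047599), the receptor for growth hormone releasing hormone, had medians of 275 CPM in the high and 286 CPM in the low range, and which median was higher depended on single calves. IGF1 had medians of 1.47 and 1.48 CPM, and PAPPA2, a protease that frees IGF1 from a binding protein, 10.6 and 8.57 CPM.

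The 8 gonadotropin and GnRH signalling genes had a median difference of -0.37, with 6 medians lower and 2 higher in the high range, where 47.1% of all genes had a higher median. FST and EGR1 were past 1.5-fold on the lower side (2 of 8, beside 2.02% of all genes and 9 of the 158 symbol genes), and none of the 8 was without overlap. FSHB (ENSBTAG00000010889), the beta subunit of follicle stimulating hormone, ran from 271 to 839 CPM with a median of 429 CPM in the high range, and from 359 to 2949 CPM with a median of 584 CPM in the low range. FST, the activin inhibitor follistatin, had medians of 2.12 and 3.77 CPM. The median difference of FST, -0.70, was -0.56 without calf 553, 1050, 1089 or 1531 and -0.49 without calf 1388, 2120 or 2570, and -0.48 with a pseudocount of 2 CPM, all short of 1.5-fold. The values of FSHB and FST overlapped widely, and calf 553 held the highest value of both genes. The median difference of FSHB, -0.38, was 0.05 without calf 553, 1050 or 1360 and -0.02 without calf 1388, 2120 or 2570. It was -0.81 without calf 986, 1531 or 2528 and -0.63 without calf 1089, 1707 or 2535. RASD1, a small GTPase induced by glucocorticoids, had medians of 76.1 and 58.7 CPM, and the calcium channel gene CACNA1I 5.26 and 5.71 CPM. The median difference of RASD1, 0.40, was between 0.11 and 0.70 with 1 calf left out, past 1.5-fold at its highest.

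The 14 immediate early and stress inducible genes, which respond quickly to stimulation, had lower medians in the high range for 11 genes and higher medians for 3. The list had a median difference of -0.19 and 3 members past 1.5-fold, all on the lower side (beside 2.02% of all genes and 9 of the 158 symbol genes). RGS1 (ENSBTAG00000021672), which switches off G protein signals, ran from 0.816 to 3.19 CPM with a median of 1.49 CPM in the high range, and from 1.65 to 9.71 CPM with a median of 4.21 CPM in the low range, a difference of -1.23. In the high range 4 of the 7 calves had less RGS1 than every calf of the low range. FOSB, a subunit of the AP-1 transcription factor, had medians of 1.30 and 2.44 CPM. The median difference of FOSB, -0.70, was -0.56 without calf 1388, 1707 or 2535, short of 1.5-fold, and the median difference of EGR1, -0.68, was -0.34 without calf 1089, 1388 or 3620, -0.52 without calf 1050, 1531 or 2528 and -0.53 without calf 2570, all short of 1.5-fold as well. With a pseudocount of 2 CPM the FOSB difference was -0.43. EGR1 had medians of 50.2 and 81.3 CPM, with the highest value at 421 CPM in calf 1050 of the low range.

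**Figure D3:**
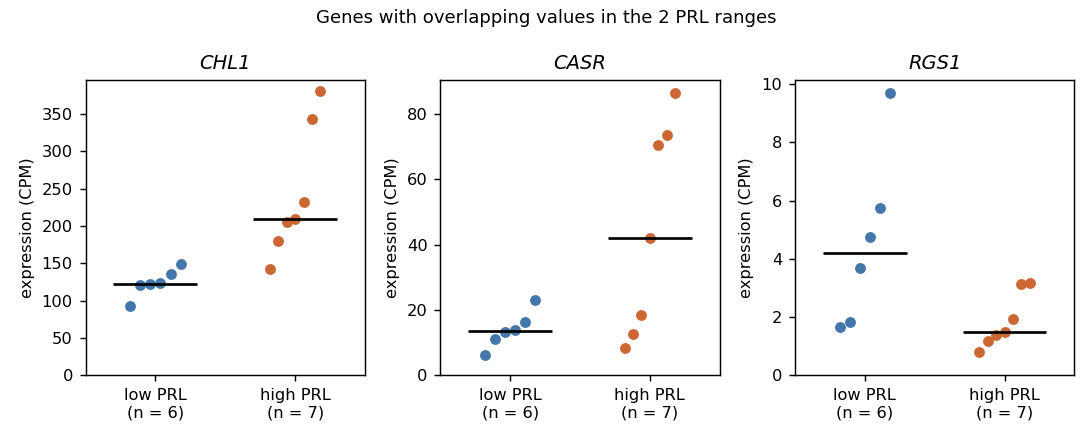
CPM of CHL1, CASR and RGS1 in the 13 calves, with a point for each calf and a line at the median of each PRL range. The CASR values of the high range lie in a lower set of 3 calves up to 18.6 CPM and an upper set of 4 calves from 42.1 CPM, and those of RGS1 in the high range are all below the low range median of 4.21 CPM.

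All 4 cell division genes had higher medians in the high range, 3 of them past 1.5-fold (beside 1.23% of all genes and 19 of the 158 symbol genes), and the median difference was 0.60. IQGAP3, a scaffold protein of dividing cells, had medians of 3.84 and 1.55 CPM, and CIT, a kinase of cytokinesis, 154 and 102 CPM. The mitotic kinase AURKB had medians of 2.18 and 1.27 CPM, but its highest value was 4.08 CPM in calf 2528 of the low range. CIT and AURKB were just past 1.5-fold, with differences of 0.60 each. On libraries scaled to reads on genes other than PRL they were short of it, at 0.44 for CIT and 0.55 for AURKB. CIT was also short of it without calf 553, 986, 1360, 1388, 1707, 2120 or 2535, and AURKB without calf 553, 1050 or 1360 and, at 0.35, with a pseudocount of 2 CPM. CKS2, a subunit of cyclin dependent kinases, had medians of 5.62 and 4.32 CPM.

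Of the 16 matrix and adhesion genes, 10 had higher and 6 lower medians in the high range, with a median difference of 0.20. CHL1 (ENSBTAG00000002471), a neural cell adhesion molecule, ran from 143 to 381 CPM with a median of 209 CPM in the high range, and from 92.2 to 149 CPM with a median of 122 CPM in the low range, and only calf 2535 of the high range was within the low range values. SPON1, a secreted matrix protein, had medians of 83.8 and 71.1 CPM, and its lowest value of all 13 calves was in the high range. Outside the lists, MSLN, which encodes the surface protein mesothelin, had medians of 11.0 and 3.81 CPM, with only calves 2570 and 2535 of the high range below the highest low range value of 9.67 CPM.

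In the remaining lists GPX3 was the only gene without overlap. The median differences were -0.06 for 12 lipid and energy metabolism genes, which include GPX3, and -0.16 for 6 retinoid and steroid related genes. They were 0.08 for 11 receptor genes and 0.08 for 13 neuronal and synaptic genes. GREB1L, named for its likeness to an oestrogen induced gene, had medians of 46.5 and 27.3 CPM, with 6 of 7 high range calves above the low range. GPR139, an orphan receptor, had medians of 3.59 and 1.61 CPM with wide overlap. LPL, the lipoprotein lipase, had medians of 2.37 and 2.42 CPM.

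**Figure D4:**
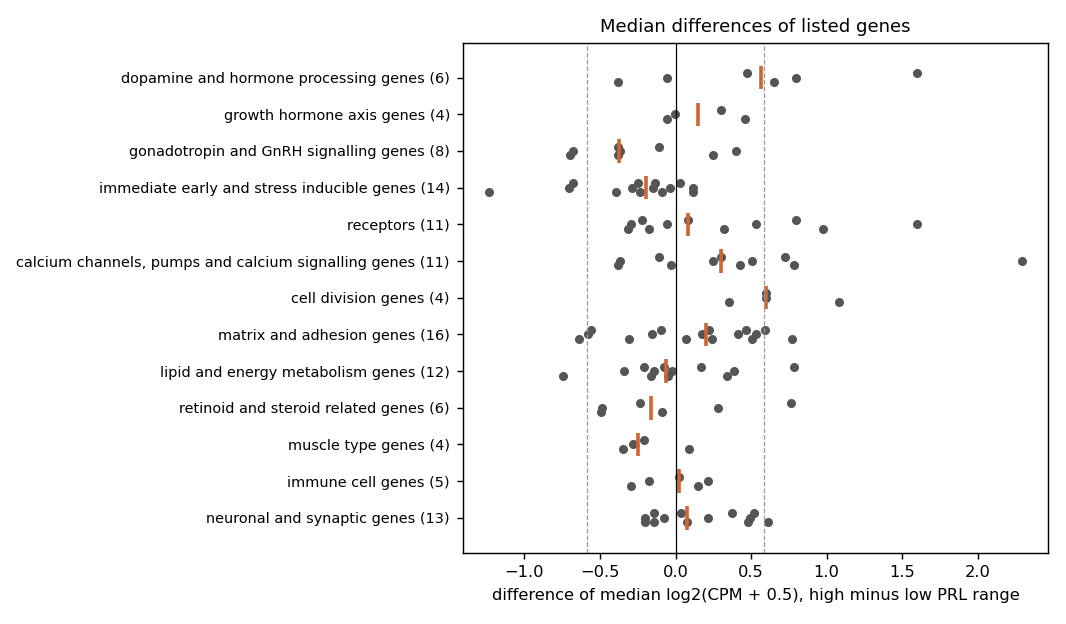
Difference of median log2(CPM + 0.5) between the high and the low PRL range for the members of 13 gene lists, with a point for each gene, a coloured line at the list median, dashed lines at 1.5-fold either way and the number of genes in brackets. Genes may stand in several lists. The cell division list has its median at 0.60 and the gonadotropin and GnRH signalling list at -0.37.

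Markers of other cell types were compared because a share of another cell type can move many genes. ACTA2 and LMOD1, markers of smooth muscle, summed to between 17.3 and 69.1 CPM in the high range and between 30.1 and 56.7 CPM in the low range. CX3CR1 and TIMD4, markers of macrophages, summed to between 23.1 and 74.0 CPM in the high range and between 42.6 and 112 CPM in the low range. CX3CR1, the larger part, had medians of 52.9 and 65.4 CPM in the high and the low range, and no calf of the high range was above 62.6 CPM. TIMD4 went the other way, with medians of 6.31 and 5.45 CPM. The 4 muscle type genes had a median difference of -0.25 and the 5 immune cell genes 0.02. The B cell marker CD79B was at no more than 2.22 CPM in any calf, and OMG, a marker of oligodendrocytes, at no more than 3.92 CPM. The dividing cell markers AURKB and CKS2 summed to between 5.19 and 8.74 CPM in the high range and between 2.83 and 10.2 CPM in the low range. The sums overlapped between the ranges for every marker list, as did those of the somatotroph markers CSHL1 and GHRHR. The somatotroph sum, nearly all of it CSHL1, had medians of 88244 CPM in the high and 64302 CPM in the low range. GHRHR alone had medians of 275 and 286 CPM. The part of these cell types in the differences given above was not tested.

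All but 3 of the 137 separated genes had no symbol in the table, and the largest differences are given by identifier. Of the 137 genes, 3 passed the filter on low values (0.669 CPM in at least 6 calves) through 1 range alone, namely PLCH2, ENSBTAG00000015632 and ENSBTAG00000050597. Their entry rested on the range where they were higher, so their separation is only a description. Of all genes tested, 449 passed through 1 range alone. ENSBTAG00000015632 had medians of 1.51 CPM in the high and 0.441 CPM in the low range, with between 1 and 151 reads, and ENSBTAG00000000356 had 17.4 and 8.12 CPM. ENSBTAG00000050597 had medians of 0.460 and 1.89 CPM, and ENSBTAG00000000284 had 2.86 and 6.08 CPM.

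A further question was whether expression followed PRL among calves of the same range, which the grouping did not use. Limma was fitted across all 14934 genes with an intercept for each range and a common slope on log2 PRL, so that no difference between the ranges entered the slope. A slope of 1 means that a gene doubled where PRL doubled. No gene had a Benjamini-Hochberg adjusted p-value below 0.05 (0 genes, 0%), and 598 genes (4.00%) had an unadjusted p-value below 0.05. The smallest limma adjusted p-value was 0.333. With libraries scaled to reads on genes other than PRL, 901 genes were below 0.05 unadjusted and the smallest limma adjusted p-value was 0.143. With PRL alone put on that scale these were 864 genes and 0.0606. The quasi-likelihood test of edgeR and limma-voom also called 0 genes, with 610 and 669 below 0.05 unadjusted, while DESeq2 called 11, of which 2 had a symbol. Of the 158 symbol genes, 23 had an unadjusted limma p-value below 0.05 (14.6%, beside 4.00% of all genes), 15 with a positive and 8 with a negative slope.

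For the separated genes and the hormone genes no slope passed the test, which with so few calves does not show that there was no relation. The slope of PLCH2 was 0.37 (standard error 0.73), that of CAMK1D 0.03 (standard error 0.34) and that of GPX3 -0.30 (standard error 0.37). For CHL1 the slope was 0.45 (standard error 0.45), for CSHL1 -0.17 (standard error 0.42), for DRD2 0.67 (standard error 0.32) and for ETV1 0.96 (standard error 0.36). Limma gave each of these 7 genes an adjusted p-value of 1.00 after rounding. With 1 calf left out, the slope lay between 0.18 and 0.87 for CHL1, between 0.32 and 0.88 for DRD2 and between -0.67 and -0.18 for GPX3.

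The symbol genes with the smallest unadjusted p-values were KLHL1, CACNA1I, MTUS2 and DIRAS2, which were chosen after their values were seen. KLHL1 (ENSBTAG00000008647), a neuronal protein that binds actin, had a slope of 1.86 (standard error 0.37, limma adjusted p = 0.333). Its level was 7.75 and 6.12 CPM in calves 986 and 553, which had the least PRL, and between 14.5 and 19.7 CPM in the other 4 calves of the low range. In the high range it ran from 9.28 CPM in calf 2570, which had the least PRL of that range, to 18.7 CPM in calf 1388. The KLHL1 medians differed little, at 14.9 and 15.8 CPM in the high and the low range. CACNA1I (ENSBTAG00000045610) had a slope of 2.00 (standard error 0.45, limma adjusted p = 0.681) and the lowest values in calves 986, 553 and 2570, at 2.22, 2.71 and 3.41 CPM. DIRAS2, a small GTPase, had a slope of 2.27 (standard error 0.56, limma adjusted p = 0.775), and MTUS2, a microtubule associated protein, a slope of -1.34 (standard error 0.32, limma adjusted p = 0.681). DESeq2 called KLHL1 (adjusted p = 0.00547) and CACNA1I (adjusted p = 0.0237). Over all alternatives the adjusted p-values ran from 0.00547 to 1.00 for KLHL1 and from 0.0237 to 1.00 for CACNA1I.

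**Figure D5:**
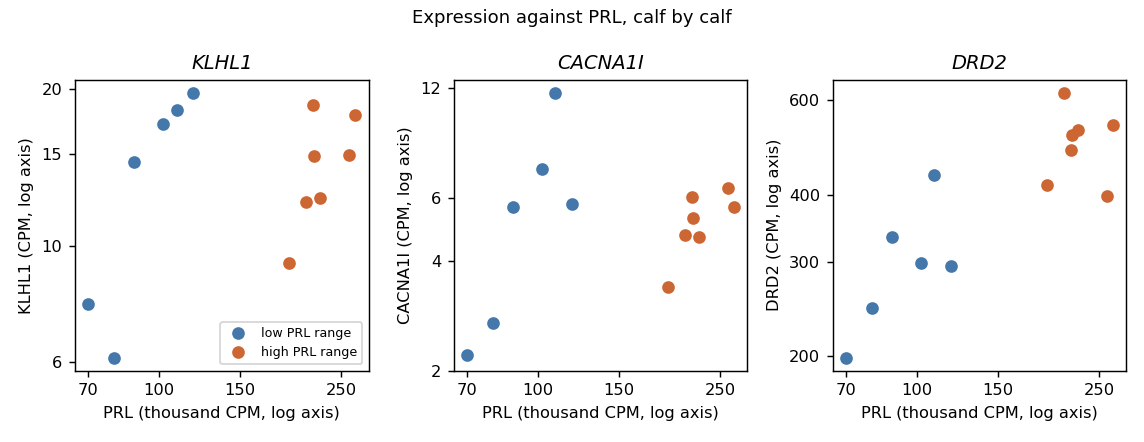
CPM of KLHL1, CACNA1I and DRD2 against PRL CPM divided by 1000, both on log axes, with a point for each of the 13 calves coloured by PRL range. KLHL1 and CACNA1I are lowest at the low end of PRL in each range, while DRD2 has a median of 517 CPM in the high range against 297 CPM in the low range.

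DRD2 and CSHL1 were also compared with PRL within each range on log2 CPM by exact permutation tests (2-sided), in a family of 4 relations. In the 6 calves of the low range, DRD2 gave Pearson r = 0.74 (exact permutation p = 0.0917, adjusted p = 0.367) and Spearman rho = 0.60 (exact permutation p = 0.242, adjusted p = 0.483), and r was 0.80 without calves 986 and 1360. In the 7 calves of the high range, DRD2 gave r = -0.05 (exact permutation p = 0.904, adjusted p = 0.904) and rho = 0.07 (exact permutation p = 0.906, adjusted p = 0.906), and r was 0.54 without calves 1089 and 2120. CSHL1 gave r = 0.40 in the low range (exact permutation p = 0.464, adjusted p = 0.619) and rho = 0.14 (exact permutation p = 0.803, adjusted p = 0.906), and r was -0.37 without calves 986 and 1360. In the high range CSHL1 gave r = -0.41 (exact permutation p = 0.348, adjusted p = 0.619) and rho = -0.68 (exact permutation p = 0.110, adjusted p = 0.438), and r was -0.92 without calves 1089 and 2120. None of the 4 relations passed the threshold, which with 6 or 7 calves does not show that there was no relation. The signs of CSHL1 in the low range and of DRD2 in the high range turned when the 2 outer calves were left out.

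The 5 symbol genes whose order over the 13 calves was most like that of PRL were CHL1, PLCH2, CAMK1D, MSLN and PLXNB3, a semaphorin receptor. Because PRL falls into separate ranges, likeness is given within each range, as Spearman rho with no test. CHL1 had rho = 0.79 in the high and 0.20 in the low range, CAMK1D 0.71 and -0.26, and PLCH2 0.25 and 0.54. MSLN had rho = 0.39 in the high and 0.77 in the low range, and PLXNB3 0.14 and 0.77.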

How the data were processed

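Anterior pituitary mRNA of 13 HI calves was analysed. The authors trimmed adapters (cutadapt), mapped to the ARS-UCD1.2 assembly (STAR) and had STAR quantify genes. Versions of these tools differ between the sources and are not given here. Groups follow the labels, whose numbers of calves per diet differ from those in the study's text. The deposited values are a normalized signal: counts scaled to 1000000 reads on TMM-adjusted library sizes. Whole reads were recovered (100% of positive values within 0.01 of a whole read), which makes 1 read equal to 0.0482 to 0.0816 CPM depending on the library. Intervals and limits from reads cover counting error only.

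Calves were grouped by PRL at 150000 CPM. The members and gene lists were chosen with earlier results of these data known. Since a measured value made the ranges, they were described by lowest, median and highest CPM and not tested. Of 27607 genes, those passing filterByExpr of edgeR 4.0.16 (groups: the ranges; 0.669 CPM in at least 6 calves) were used, and 449 of them, with 9 of the 158 symbol genes, reached that level in enough calves of 1 range only. The slope on log2 PRL within ranges was tested on log2(CPM + 0.5) with limma (version 3.58.1, trended and robust; R version 4.3.3) across all genes, with Benjamini-Hochberg adjustment. On simulated reads the same step recovered 72 of 100 slopes of size 2 and 96 of 100 slopes of size 4, and called 6 unchanged genes. Smaller slopes were not simulated and may be missed. The fitted slope understates changes of low genes. Other scalings, filters, pseudocounts, edgeR, DESeq2 1.42.0 and limma-voom on recovered reads, and leaving out each calf were tried. No libraries agreed within sampling noise (smallest chi-square per gene between 2 calves, 9.77). Each calf is a separate animal.

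Genes named are members of the lists, those without overlap, those most like PRL in order, and any passing the slope test. Symbols come from the supplementary gene table. Its fold changes were not used. No sequence, coordinate or cell count was used here.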

Additional observations from a re-analysis of the deposited data

Results flagged for a closer look

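Within the PRL ranges, 9 of 86 sets of values held a calf that stood far from the others of its range by Dixon's criterion. Chance gives about 1 in 20 for normal values, and whether these CPM values are normal was not tested. In all 9 it was the highest calf. Calf 553 of the low range stood out for FSHB at 2949 CPM, with the next calf at 779 CPM, and for FST at 14.7 CPM, with the next at 4.26 CPM. Calf 1050 of the low range had 421 CPM of EGR1, with the next calf at 102 CPM, and calf 1360 had 9.67 CPM of MSLN, with the next at 4.39 CPM. In the high range, calf 2535 was highest for CACNA1E at 4.65 CPM, for LPL at 4.23 CPM and for CD79B at 2.22 CPM, with the next calves at 2.41, 2.89 and 1.16 CPM. Calf 1089 had 341 CPM of GHRHR, with the next at 280.5 CPM, and calf 1707 had 4803 CPM of GPX3, with the next at 3249 CPM. No cause was tested.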

How the results depend on the processing

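The ranges are 13 calves sorted by a measured gene, with 1 library each. Scaling each library to reads on genes other than PRL moved the separated genes from 84 higher and 53 lower (61.3% higher) to 38 higher and 119 lower (24.2% higher). Leaving CSHL1 out as well gave 59 higher and 74 lower (44.4% higher), and RLE size factors gave 68.8% higher. With each calf left out, there were between 91 and 222 higher, between 61 and 143 lower and between 3 and 9 symbol genes separated. Without calf 1089 or 1360 there were 5 symbol genes, without calf 2528 there were 8, and without calf 3620 there were 9. Of the median differences of 43 named genes, 30 moved by over 1.5 times in at least 1 alternative. The sign turned for 8 (FSHB, GHRHR, IGF1, KLHL1, LPL, OMG, TIMD4 and TRHDE), 6 came to be past 1.5-fold (ACTA2, CSHL1, DIO3, FSHB, PCP4 and RASD1) and 6 fell short of it (AURKB, CIT, EGR1, ETV1, FOSB and FST). DESeq2 called 11 genes for the slope within ranges where limma called 0, and the cause was not tested. Among weak slopes, leaving out a calf turned CSHL1 (from -0.47 to 0.12), PLCH2 (from -0.10 to 0.71) and CAMK1D (from -0.18 to 0.21), and DESeq2 gave CAMK1D -0.011. Singly, CSHL1 was at 0.12 without calf 2570, PLCH2 at -0.10 without calf 2120, and the within-range slope of CAMK1D at -0.0285 without calf 1360, -0.0339 without calf 2120, -0.00939 without calf 2535 and -0.18 without calf 2570. On the scale of reads on other genes, DRD2 in the high range gave r = 0.19 and rho = -0.036. CSHL1 gave r = -0.64 in the high range and rho = 0.31 in the low range on that scale, and no relation passed the threshold there. No paired analysis was possible because the ranges share no replicate numbers.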
